A study of Canis lupus familiaris with 29 samples.

Results

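Levels of 6 genes that govern the adrenal cortex were compared between canine pheochromocytomas and paragangliomas (PPGLs) and normal adrenal medullas (NAMs). They were the transcription factors NR5A1 and NR0B1, the corticotropin receptor MC2R and its accessory protein MRAP, the angiotensin II receptor AGTR1, and INHA, the alpha subunit of inhibin. These genes were taken by name for their roles, and make up 6 of the 30951 genes counted.

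The adrenal cortex makes steroid hormones and surrounds the medulla, whose chromaffin cells make catecholamines and are the cells from which a pheochromocytoma arises. NR5A1, also called steroidogenic factor 1, drives transcription of most genes of steroid synthesis, and NR0B1, also called DAX1, represses much of what NR5A1 activates. Corticotropin acts through MC2R, which reaches the cell surface only with MRAP, while angiotensin II acts through AGTR1 in aldosterone-producing cells and also in smooth muscle and pericytes of vessels.

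PPGLs were taken from dogs seen as patients, and NAMs were dissected from adrenals of 10 healthy research dogs. The 19 PPGLs, left after the authors had set aside tumors they judged to be outliers, fall into PPGL group 1 with 7 tumors and PPGL group 2 with 12. The authors drew these groups from a principal component analysis of these same samples, so a p-value between them describes that split and not a separate set of tumors. All tumors came from patients and all NAMs from research dogs, so the origin of the dogs and the tissue cannot be told apart. NAMs were snap-frozen, while tumors, from several centers, were snap-frozen or first put in RNAlater. The 19 included 1 paraganglioma, which the labels do not single out. In the paper, most dogs of group 1 had a tumor thrombus, and its sampling is raised as a possible source of fewer cortical cells. This was not tested here. Sequenced libraries were stranded mRNA. The labels name no treatment, age or library batch for either group.

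Total counts per sample ranged from 19258054 to 35918182 in NAMs, 18493540 to 31919833 in PPGL group 1 and 18208718 to 24569667 in PPGL group 2. Levels are in CPM, the share of a library's counts scaled to a common total, normalized by the trimmed mean of M values (TMM). A level of 3 counts was taken as the smallest that can be read at this depth. Over total counts, without TMM, it was 0.0835 to 0.156 CPM in NAMs, 0.0940 to 0.162 CPM in group 1 and 0.122 to 0.165 CPM in group 2. After TMM, 3 counts can lie outside these ranges, and samples at or under this floor were taken by their counts. This floor and the intervals on pooled counts cover counting error only. Differences are given as the log2 fold change (log2 FC) with its standard error (SE) and an FDR-adjusted p, all from the quasi-likelihood (QL) test of edgeR with Benjamini-Hochberg adjustment over all genes tested. A gene is called lower or higher at an adjusted p below 0.05 against NAMs and below 0.1 between the PPGL groups, the p thresholds of the study, whose p-values came from the Mann-Whitney U-test and which also asked for a log2 FC beyond 3 in either direction.

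In the CanFam3.1 genome, NR5A1 (ENSCAFG00000023086) lies on chromosome 9 from 58463445 to 58484999, plus strand, and NR0B1 (ENSCAFG00000013658) on chromosome X from 25396527 to 25401715, minus strand. MC2R (ENSCAFG00000000170) spans 24388280 to 24389170 of chromosome 1, plus strand, and MRAP (ENSCAFG00000008888) 27058366 to 27087573 of chromosome 31, plus strand. AGTR1 (ENSCAFG00000008205) lies on chromosome 23 from 43614035 to 43616238, plus strand, and INHA (ENSCAFG00000015653) on chromosome 37 from 26080510 to 26083391, plus strand. Exons counted amount to 3193 bases for NR5A1, 1958 for NR0B1, 891 for MC2R, 689 for MRAP, 1167 for AGTR1 and 1157 for INHA. The span of MRAP overlaps 1 other gene, ENSCAFG00000008892, and since neither the strand setting nor, with certainty, the tool of the counting is given in the sources used here, reads in that overlap cannot be assigned with certainty.

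Markers of both parts of the adrenal gland were read in every sample before the 6 genes. NAMs held chromaffin transcripts at a summed 18024 to 97344 CPM over 15 marker genes (median 32476), with CHGB the most abundant, and none of the 15 was at 0 in all samples. They also held transcripts of steroid synthesis, at a summed 15746 to 74535 CPM over 13 genes of steroid enzymes and cholesterol delivery (median 39898), with CYP17A1 the most abundant. Each tissue labelled as medulla therefore carried cortical RNA, and CYP11A1, which starts steroid synthesis from cholesterol, stood at 2408 to 10622 CPM in NAMs. The summed steroid list was lower in tumors, at 252 to 1282 CPM in PPGL group 1 (median 475) and 398 to 36319 CPM in PPGL group 2 (median 4052). All 7 tumors of group 1 and 11 of 12 of group 2 lay below every NAM. Chromaffin markers summed to 8888 to 120089 CPM in group 1 and 21222 to 103816 CPM in group 2, and 3 of 7 and 10 of 12 tumors lay within the range of NAMs. In bulk tissue, fewer cells of a type in a sample, cortical cells among them, and less RNA per such cell cannot be told apart. This holds for every level below, and a gene such as AGTR1 can come from several cell types.

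**Figure D1:**
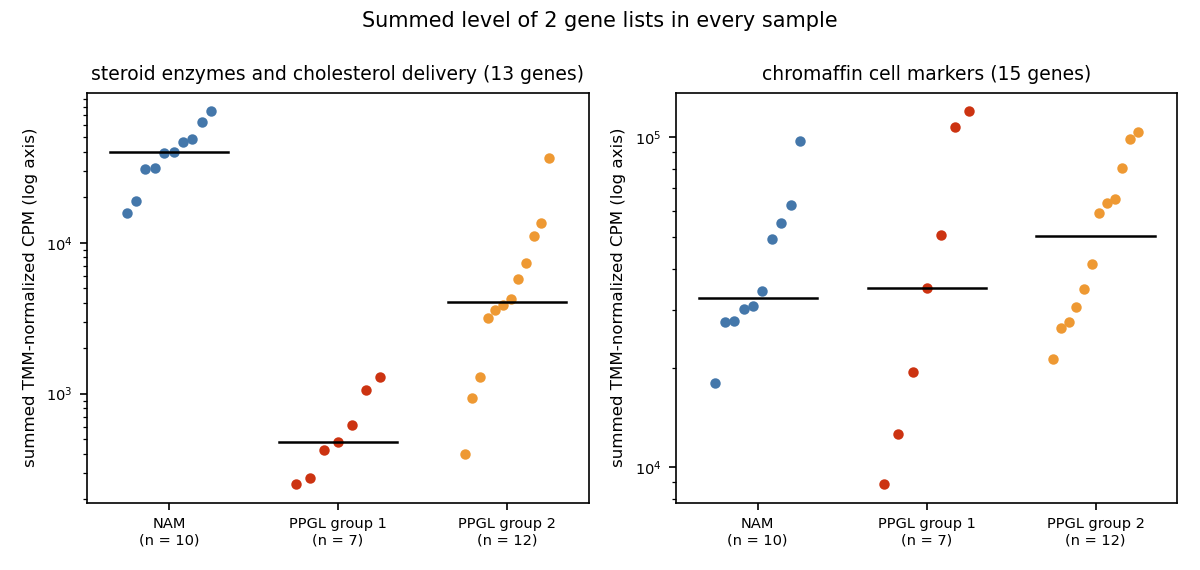
Summed TMM-normalized CPM (log axis) of 13 genes of steroid synthesis and cholesterol delivery and of 15 chromaffin cell markers in NAMs, PPGL group 1 and PPGL group 2. Points are samples and black lines are medians; the steroid list of all 7 tumors of group 1 and 11 of 12 of group 2 lies below every NAM, while most chromaffin sums overlap.

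4 tumors stood apart in chromaffin markers, with TH, the first enzyme of catecholamine synthesis, or CHGB, a granin of the secretory granules, below 0.1 times the lowest NAM. TH was at 10.8 CPM in PPGL group 1 replicate 3, 2.15 CPM in group 1 replicate 5 and 32.3 CPM in group 2 replicate 7, against 1057 CPM in the lowest NAM. CHGB was at 27.1 CPM in group 1 replicate 7, against 5688 CPM in the lowest NAM. The log2 FC of the 6 genes is given with and without these 4 tumors, a choice made after the data were seen that leaves 4 tumors in group 1 and 11 in group 2. Ratios and correlations were run without group 2 replicate 7 but not without all 4, and the list counts use all samples.

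5 of the 6 genes were lower in PPGLs than in NAMs, where 15.2% of the 14766 genes tested were lower and 22.3% higher, and 4 of them had a log2 FC under -3, as had 0.792% of genes tested. The median log2 FC was -3.23 over the 6 genes and 0.13 over all genes. With 3 groups in the fit, where the mean of both PPGL groups counts each group alike, the log2 FC was larger, at -5.24 for NR5A1, -4.92 for NR0B1, -6.05 for MC2R, -6.22 for MRAP, -1.60 for AGTR1 and -4.09 for INHA. Without the 4 tumors low in TH or CHGB, 6 were lower. PPGL group 1 was lower than group 2 for 5 of the 6, against 2.95% of 14666 genes (3.97% were higher), with a median log2 FC of -5.77 beside 0.035 for all genes. Those 4 tumors aside, 4 of the 6 were called, AGTR1 and INHA not among them, and all genes called in either direction between the groups fell from 1015 to 303. Against NAMs, 6 genes were lower in group 1 (14.1% of 15201 genes tested; median log2 FC -8.02, all genes 0.13) and 5 in group 2 (14.5%; median -2.59, all genes 0.095). Both of these comparisons used the same NAMs, and they gave 6 and 5 again without the 4 tumors. The log2 FC was then -8.60 and -2.53 for NR5A1 in group 1 and group 2, -7.45 and -1.51 for NR0B1, -8.66 and -2.41 for MC2R, -8.54 and -2.85 for MRAP, -3.13 and -0.84 for AGTR1 and -5.48 and -2.97 for INHA. Each of the 6 passed the low-count filter in each comparison. NR0B1, MC2R and MRAP passed through NAMs or group 2, since they had 2, 12 and 36 counts over all of group 1. With all samples, AGTR1 was the gene not called wherever 5 were.

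NR5A1 was at 122 CPM in the lowest NAM, 376 in the median and 702 in the highest, at 0.0298, 1.37 and 5.28 in PPGL group 1, and at 4.56, 32.0 and 238 in PPGL group 2. All of group 1 and 10 of 12 tumors of group 2 lay below every NAM, and 6 of 7 tumors of group 1 lay below every tumor of group 2. The mean was 360.0 ± 184 CPM (SD, n = 10) in NAMs, and PPGLs had 37.1 ± 63.0 CPM (SD, n = 19), a log2 FC of -3.28 (SE 0.79, edgeR QL test, Benjamini-Hochberg-adjusted p = 0.00174). Group 1 differed from group 2 by a log2 FC of -5.19 (SE 1.02, edgeR QL, adjusted p = 0.0116). Relative to NAMs, the log2 FC was -7.83 (SE 1.01) in group 1 and -2.64 (SE 0.62) in group 2, with edgeR QL adjusted p = 1.90e-06 and 0.00193. Counts in group 1 were few, 249 over its 7 tumors with 2 tumors at or under 3, and NAMs had 232 times the pooled share of reads (95% interval 205 to 264). Group 1 replicate 3, at 5.28 CPM, was the highest of its group, and without it the pooled ratio was 366 and the log2 FC of group 1 was -5.88 to group 2 and -8.53 to NAMs. Leaving out the 4 tumors low in TH or CHGB gave -2.96 for PPGLs against NAMs and -6.06 between the groups (edgeR QL, adjusted p = 0.00337 and 0.0454).

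NR0B1 was the least abundant of the 6 genes per length in each group. In NAMs the lowest, median and highest level was 1.61, 4.79 and 10.9 CPM, in PPGL group 2 0.0481, 0.885 and 6.15 CPM, and in PPGL group 1 6 of 7 tumors had no count and the other had 2. Every tumor of group 1 and 9 of 12 of group 2 lay below every NAM, although 2 tumors of group 2 were themselves at or under 3 counts. NAMs averaged 5.30 ± 3.12 CPM (SD, n = 10) and PPGLs 1.09 ± 1.85 CPM (SD, n = 19), with a log2 FC of -2.28 (SE 0.79, edgeR QL test, Benjamini-Hochberg-adjusted p = 0.0230). In group 2 alone the log2 FC to NAMs was -1.63 (SE 0.59, edgeR QL, adjusted p = 0.0327), a call that was lost without NAM replicate 1 (0.0586), NAM replicate 8 (0.0544) or NAM replicate 9 (0.0678), each an adjusted p of edgeR QL. For group 1, with 2 counts in all, the pooled share of reads in NAMs was 411 times higher, with a counting interval from 113 to 3396. The fitted log2 FC of group 1 was -8.20 to NAMs and -6.53 to group 2 (SE 1.09 and 1.17, edgeR QL, adjusted p = 2.58e-06 and 0.00623), values that depend on the prior count and became -5.77 and -4.12 with a prior count of 2. Both counts came from group 1 replicate 6. Without that tumor, no count is left for a pooled ratio, and the fitted log2 FC was -10.00 to NAMs and -8.30 to group 2. PPGLs without the 4 low in TH or CHGB gave -1.94 against NAMs (edgeR QL, adjusted p = 0.0321), and the log2 FC between the groups was then -5.89.

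MC2R stood at 28.8, 61.2 and 103.8 CPM in the lowest, median and highest NAM. The same 3 values were 0, 0 and 0.525 CPM in PPGL group 1 and 0.577, 6.39 and 45.1 CPM in PPGL group 2. The 3 groups thus hardly overlapped, with all 7 tumors of group 1 below every tumor of group 2 and 11 of 12 tumors of group 2 below every NAM. The log2 FC was -3.18 for PPGLs (6.92 ± 11.4 CPM, SD, n = 19) against NAMs (62.8 ± 26.3 CPM, SD, n = 10), with SE 0.82 and a Benjamini-Hochberg-adjusted p of 0.00327 by the edgeR QL test. Between the groups it was -6.92 (SE 1.21, edgeR QL, adjusted p = 0.00606). It was -9.57 (SE 1.07) for group 1 and -2.53 (SE 0.58) for group 2 relative to NAMs, with edgeR QL adjusted p = 4.30e-07 and 0.00145. With a prior count of 2, the log2 FC of group 1 became -8.58 to NAMs and -5.96 to group 2. In group 1, 4 tumors had no count and 12 counts were found in all, so NAMs had 840.3 times the pooled share of reads (95% interval 481 to 1627). Group 1 replicate 6 held most of these counts, and without it 3 counts were left, the pooled ratio was 3019 and the log2 FC was -8.70 to group 2 and -11.28 to NAMs. Without the 4 tumors low in TH or CHGB, the log2 FC was -2.84 for PPGLs against NAMs and -6.19 between the groups (edgeR QL, adjusted p = 0.00323 and 0.0494).

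MRAP, which carries MC2R to the cell surface, was at 55.3, 140.4 and 362 CPM in the lowest, median and highest NAM. Levels were 0, 0 and 1.63 CPM in PPGL group 1, and 0.241, 7.63 and 107 CPM in PPGL group 2. Only group 2 replicate 10 lay within the range of NAMs, and 6 of 7 tumors of group 1 were below every tumor of group 2. PPGLs averaged 14.2 ± 26.4 CPM (SD, n = 19) and NAMs 176 ± 115 CPM (SD, n = 10), for a log2 FC of -3.63 (SE 0.89, edgeR QL test, Benjamini-Hochberg-adjusted p = 0.00200). It was -6.35 (SE 1.33) between the groups, -9.45 (SE 1.24) for group 1 against NAMs and -2.98 (SE 0.70) for group 2 against NAMs, with edgeR QL adjusted p = 0.0159, 2.40e-06 and 0.00192. The 36 counts of group 1 put the pooled share of reads in NAMs 793 times higher (95% interval 573 to 1133). 28 of those counts lay in replicate 6, without which the pooled ratio was 3206 and the log2 FC was -8.48 to group 2 and -11.53 to NAMs. Without group 2 replicate 10, the highest tumor, it was -4.28 for PPGLs against NAMs, -3.59 for group 2 against NAMs and -5.72 between the groups. The 4 tumors low in TH or CHGB aside, it was -3.28 for PPGLs against NAMs and -5.63 between the groups (edgeR QL, adjusted p = 0.00180 and 0.0752).

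AGTR1 overlapped more between the groups, with levels of 60.6, 204 and 354 CPM in the lowest, median and highest NAM. Group 1 had 1.21, 17.6 and 101 CPM, and group 2 had 35.2, 107 and 296 CPM. 10 of 19 tumors lay within the range of NAMs, 8 of them of group 2, and only 4 of 7 tumors of group 1 were below every tumor of group 2. The mean was 208.5 ± 105 CPM (SD, n = 10) in NAMs, and PPGLs had 96.7 ± 87.1 CPM (SD, n = 19), and the log2 FC of -1.11 (SE 0.50, 95% interval -2.14 to -0.082) was not called (edgeR QL test, Benjamini-Hochberg-adjusted p = 0.0819). Without group 2 replicate 7, 1 of the tumors low in TH, it was -1.28 and was called (edgeR QL, adjusted p = 0.0417), as it was without all 4 tumors low in TH or CHGB, at -1.17 (adjusted p = 0.0465). With all samples, it was also called by the Mann-Whitney U-test (adjusted p = 0.0208), the DESeq2 Wald test (-1.14, adjusted p = 0.0496) and edgeR QL with 3 groups in the fit (-1.60, adjusted p = 0.00576). Group 2 taken alone had a log2 FC of -0.66 to NAMs (SE 0.50, 95% interval -1.68 to 0.35, edgeR QL, adjusted p = 0.314). Group 1 was lower than NAMs by a log2 FC of -2.54 (SE 0.63, edgeR QL, adjusted p = 0.00257), with a pooled share of reads in NAMs 5.26 times higher (95% interval 5.12 to 5.40). That ratio was 9.00 without group 1 replicate 5, which held 3399 of the 6385 counts. Between the groups, the log2 FC of -1.86 (SE 0.66) was not called by edgeR QL (adjusted p = 0.124), but was by the DESeq2 Wald test (adjusted p = 0.0255) and by edgeR QL with 3 groups in the fit (-1.87, adjusted p = 0.0414). Without group 1 replicate 5, also low in TH, it was -2.38 and was called (edgeR QL, adjusted p = 0.0628), while leaving out the 4 tumors low in TH or CHGB gave -2.29 and an adjusted p of 0.127.

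Group 2 replicate 7 had the highest AGTR1 of all tumors, 296 CPM, beside 5.29 CPM of NR5A1 and a summed steroid list of 398 CPM, the lowest of its group. Smooth muscle and pericyte markers, a cell type known to carry AGTR1, summed to 418 to 1693 CPM over 10 genes in NAMs (median 939), 361 to 4047 CPM in group 1 (median 1839) and 898 to 5443 CPM in group 2 (median 1723), with RGS5 the most abundant and none at 0 throughout. 4 of the 10 were higher in PPGLs than in NAMs and none was lower (22.3% and 15.2% of all genes), 4 were higher in group 2 alone, and in group 1 none was higher and 1 lower against NAMs and 2 were lower than in group 2. Over all genes, 18.4% were higher in group 2, 21.0% higher and 14.1% lower in group 1, and 2.95% lower in group 1 than in group 2. In group 2 replicate 7, the smooth muscle and pericyte markers summed to 1723 CPM, near the median of its group. The part of these markers in the level of AGTR1 was not tested.

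INHA, which pairs with a beta subunit to form inhibin and is made by steroid-producing cells, was at 30.8, 73.9 and 272 CPM in the lowest, median and highest NAM. Tumors of group 1 had 1.51, 1.87 and 5.78 CPM, and those of group 2 0.866, 6.41 and 57.0 CPM. 18 of 19 tumors were below every NAM, group 2 replicate 10 being the exception, but the PPGL groups overlapped and no tumor of group 1 lay below every tumor of group 2. NAMs averaged 95.02 ± 73.0 CPM (SD, n = 10) and PPGLs 8.12 ± 12.7 CPM (SD, n = 19), a log2 FC of -3.55 (SE 0.52, edgeR QL test, Benjamini-Hochberg-adjusted p = 9.07e-06). Without group 2 replicate 10, it was -4.13. Relative to NAMs the log2 FC was -5.09 (SE 0.73) in group 1 and -3.08 (SE 0.53) in group 2, with edgeR QL adjusted p = 7.00e-06 and 9.30e-05, and it was -3.75 in group 2 without replicate 10. The groups differed by a log2 FC of -1.99 (SE 0.66, edgeR QL, adjusted p = 0.0968), close to the threshold of 0.1. This call was lost when any 1 of 12 tumors was left out, namely replicates 1, 2, 3, 4, 6 and 7 of group 1 and replicates 1, 2, 4, 8, 10 and 12 of group 2, with an adjusted p of up to 0.187 (edgeR QL, without group 1 replicate 7) and a log2 FC of -1.33 without group 2 replicate 10. It was also lost without the 4 tumors low in TH or CHGB, at -2.51 (edgeR QL, adjusted p = 0.153), while PPGLs against NAMs then had a log2 FC of -3.32.

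**Figure D2:**
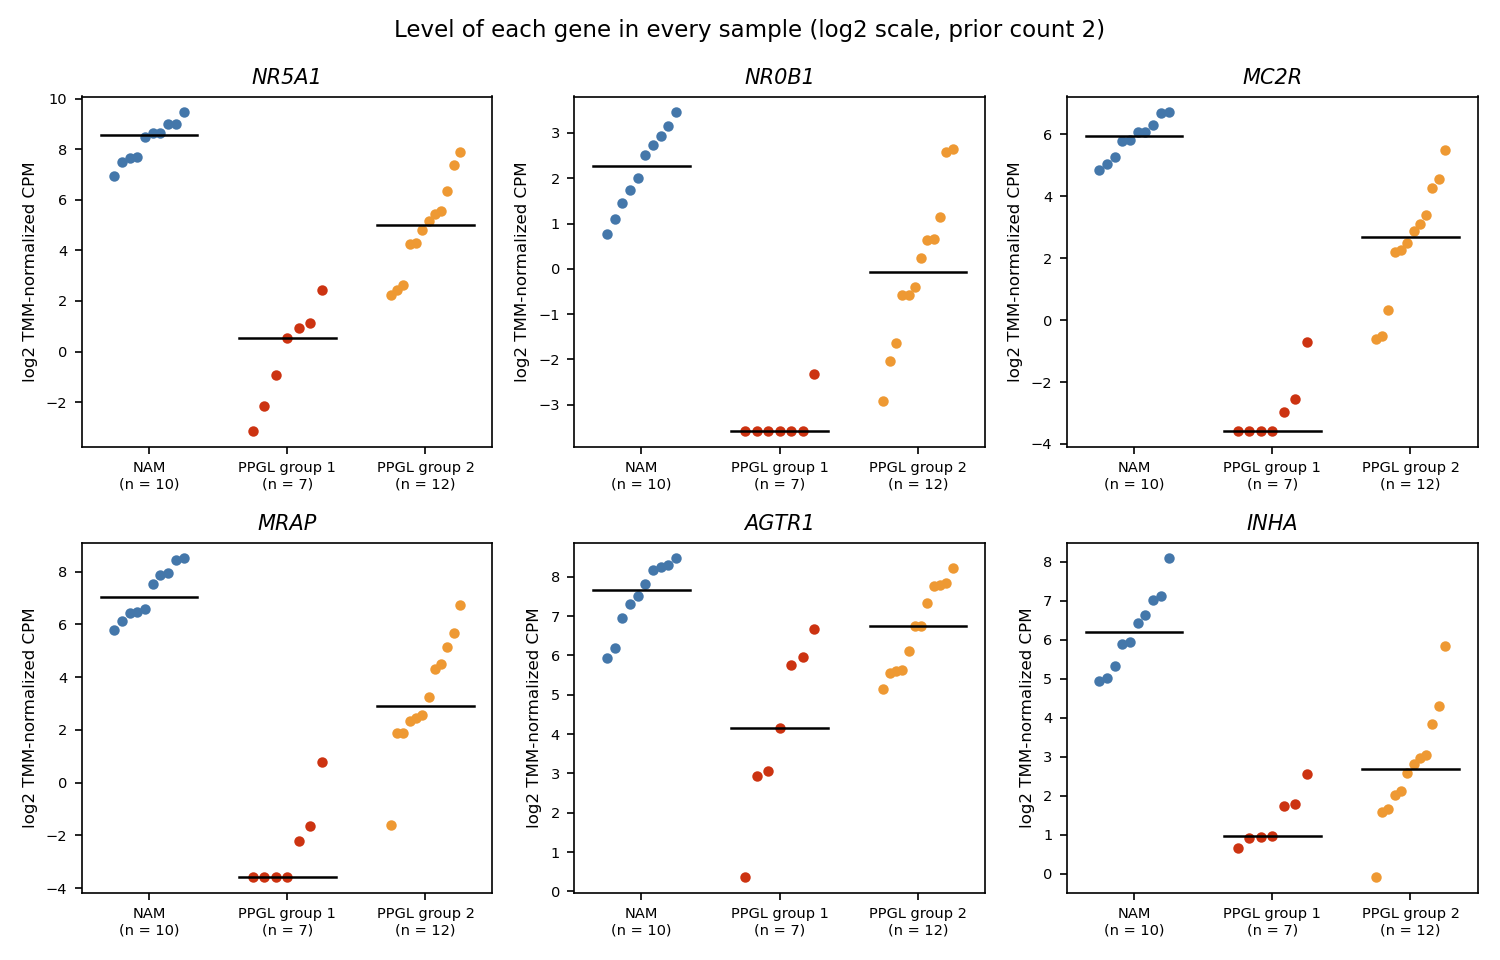
TMM-normalized CPM of the 6 genes (log2 axis) in the 29 samples by group (NAM, PPGL group 1, PPGL group 2). Points are samples and black bars are group medians; AGTR1 of 10 tumors lies within the range of NAMs, while INHA, MC2R and MRAP of 18 of 19 tumors lie below every NAM.

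Levels can be set side by side between genes only per length, here as TMM-normalized CPM per kb of exon. Mean level per kb in NAMs was 255 ± 167 for MRAP, 179 ± 90.1 for AGTR1, 113 ± 57.7 for NR5A1, 82.1 ± 63.1 for INHA, 70.5 ± 29.6 for MC2R and 2.70 ± 1.59 for NR0B1 (SD, n = 10). Neighbors in this order differed by less than the SD of the higher gene, apart from MC2R over NR0B1, and within single NAMs MRAP exceeded AGTR1 in 7 of 10, AGTR1 NR5A1 in 9, NR5A1 INHA in 9, INHA MC2R in 5 and MC2R NR0B1 in 10. In tumors the order changed at its head. AGTR1 came first in group 2, at 113 ± 76.4 CPM per kb, over MRAP (32.4 ± 44.7), NR5A1 (18.1 ± 22.7), MC2R (12.2 ± 14.4), INHA (9.71 ± 13.3) and NR0B1 (0.874 ± 1.08) (SD, n = 12). It exceeded MRAP in 11 of 12 of these tumors, and the genes from MRAP down differed from their neighbors by less than their SD, although NR5A1 exceeded MC2R in 10 of 12 and INHA NR0B1 in 12 of 12 (MRAP over NR5A1 in 7, MC2R over INHA in 8). Group 1 had AGTR1 at 30.9 ± 32.1 CPM per kb and INHA at 2.404 ± 1.32 (SD, n = 7), with NR5A1 at 0.499 ± 0.569 and the other 3 genes near or below the count floor. AGTR1 was the highest of the 6 per kb in 3 of 10 NAMs, 6 of 7 tumors of group 1 and 11 of 12 tumors of group 2. MC2R and AGTR1 have counted lengths that are a multiple of 3, as in models without untranslated regions, which bears on their place in these orders.

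Ratios of counts to NR5A1 within a sample, which do not depend on normalization, separated the genes further. They were taken as log2 of counts with 0.5 added and compared between NAMs (n = 10) and group 2 (n = 12) by 2-sided permutation tests, with Benjamini-Hochberg adjustment over the 5 ratios. AGTR1 relative to NR5A1 was at -1.51, -0.86 and -0.35 in the lowest, median and highest NAM and at -0.31, 1.25 and 5.80 in group 2. Thus 12 of 12 tumors lay above every NAM, with a mean difference of 2.66 (SE 0.53, permutation p = 2e-05, the smallest that 100000 resamples can give, adjusted p = 0.0001). NR0B1 relative to NR5A1 was at -7.05, -6.02 and -5.51 in NAMs and at -6.20, -4.88 and -4.13 in group 2, so that 8 of 12 tumors lay above every NAM. The mean difference was 1.07 (SE 0.26, permutation p = 0.00088, adjusted p = 0.0022) and NR0B1 thus fell less than NR5A1. Ratios of the other 3 genes overlapped. MC2R differed by 0.041 (SE 0.20, permutation p = 0.849), MRAP by -0.50 (SE 0.55, permutation p = 0.390) and INHA by -0.097 (SE 0.33, permutation p = 0.788), with adjusted p = 0.849, 0.651 and 0.849. Without group 2 replicate 7, the difference was 2.30 for AGTR1 and 1.18 for NR0B1. Counts of group 1 are too few for a test on most of these ratios, but AGTR1 had more counts than NR5A1 in 6 of its 7 tumors and INHA in 5, with median log2 ratios of 5.08 and 0.13.

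**Figure D3:**
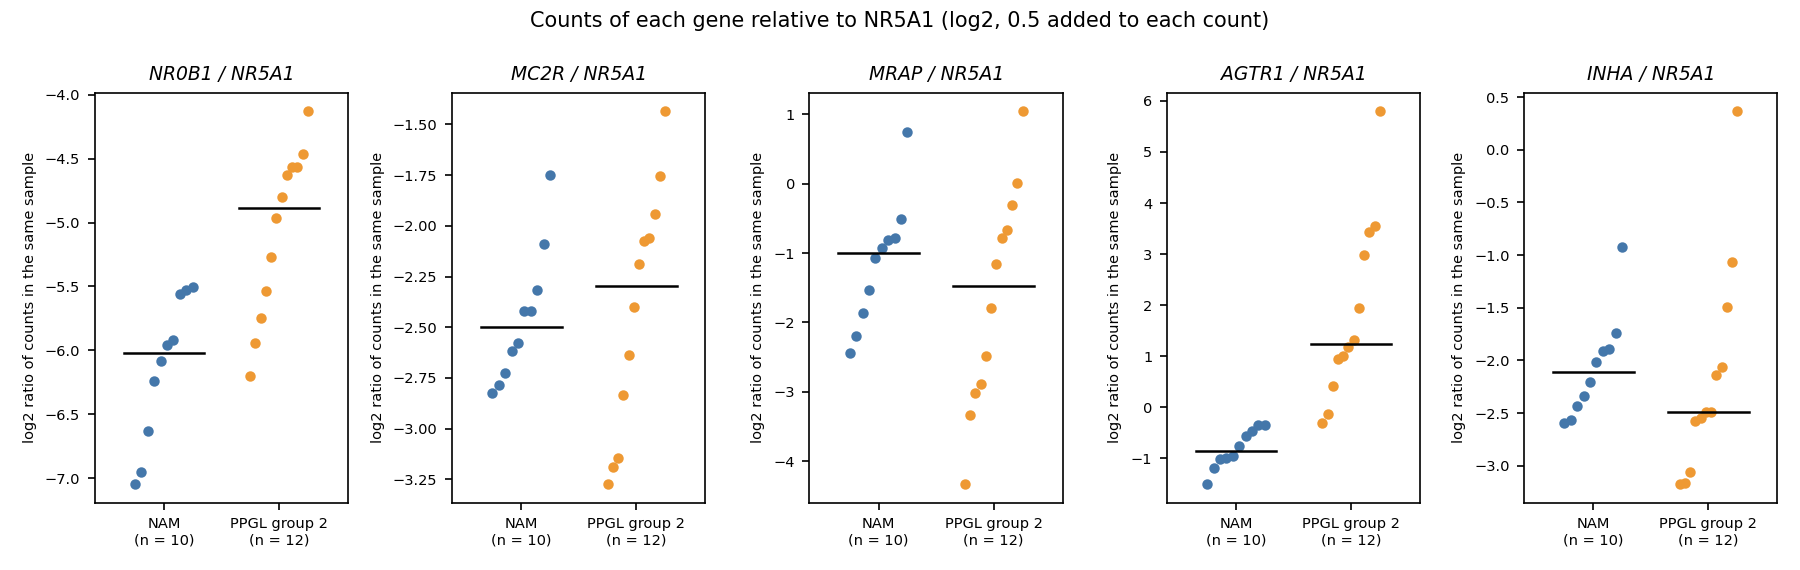
Log2 ratio of the counts of each gene to those of NR5A1 in the same sample, in NAMs and PPGL group 2. Points are samples and black bars are medians; all 12 tumors of group 2 lie above every NAM for AGTR1, and 8 of 12 for NR0B1.

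Within each group, the genes were correlated with each other over samples, as log2 TMM-normalized CPM. Of 45 pairs, 33 were computed and adjusted together by Benjamini-Hochberg, since NR0B1, MC2R and MRAP were at or under 3 counts in most tumors of group 1, which left out 12 pairs there. In NAMs, 10 of 15 pairs were correlated at an adjusted p below 0.05 by r and 10 by rho, and the 5 that were not by r all involved MRAP. NR5A1 and MC2R had r = 0.919 (permutation p = 0.00016, adjusted p = 0.00106) and rho = 0.939 (permutation p = 0.00024, adjusted p = 0.00132), and r = 0.956 without the 2 samples farthest from the median. That median is of 1 gene of the pair, the earlier in the order NR5A1, NR0B1, MC2R, MRAP, AGTR1, INHA. The samples left out can thus differ between pairs. NR5A1 and AGTR1 had r = 0.904 (permutation p = 0.00027, adjusted p = 0.00148) and rho = 0.903 (permutation p = 0.00085, adjusted p = 0.00351), and r = 0.830 without 2 samples. MRAP had r between 0.0945 and 0.589 with the other genes, and whether this is weaker than among the others was not tested. Its pair with INHA had rho = 0.673 (permutation p = 0.0380, adjusted p = 0.0570), and its pair with NR5A1 had r = 0.490 (permutation p = 0.147, adjusted p = 0.203) and rho = 0.661 (permutation p = 0.0435, adjusted p = 0.0625), with r = 0.247 without 2 samples.

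Group 2 had 10 of 15 pairs correlated by r and 9 by rho, and by r the 5 missing pairs were those of AGTR1. NR5A1 and MC2R had r = 0.954 (permutation p = 3.0e-05, adjusted p = 0.00044) and rho = 0.902 (permutation p = 0.00023, adjusted p = 0.00132), and r = 0.937 without the 2 tumors farthest from the median. MRAP and INHA had r = 0.918 (permutation p = 0.00015, adjusted p = 0.00106) and rho = 0.923 (permutation p = 8.0e-05, adjusted p = 0.00132), and r = 0.801 without 2 tumors. The pair of NR0B1 and MRAP rests on the ends of the range, with r = 0.704 (permutation p = 0.0102, adjusted p = 0.0198) and rho = 0.622 (permutation p = 0.0339, adjusted p = 0.0533), but r = 0.338 without 2 tumors. NR5A1 and AGTR1 had r = 0.341 (permutation p = 0.273, adjusted p = 0.346) and rho = 0.231 (permutation p = 0.470, adjusted p = 0.554), and r = 0.0930 without 2 tumors, while r of AGTR1 without 2 tumors was 0.698 with NR0B1, 0.718 with MC2R, 0.375 with MRAP and 0.726 with INHA. The 2 tumors left out differ between these pairs of AGTR1, and replicate 7 was among them in all but the pair with NR5A1. Calls in group 2 depend on replicate 7, the tumor low in TH. Without it, a choice made after the data were seen, 13 of 15 pairs were called by r and 8 by rho, with 4 of the 5 pairs of AGTR1 among them by r and 1 by rho. NR5A1 and AGTR1 then had r = 0.646 (permutation p = 0.0326, adjusted p = 0.0468) and rho = 0.527 (permutation p = 0.1001, adjusted p = 0.122), and MC2R and AGTR1 had r = 0.730 (permutation p = 0.00905, adjusted p = 0.0187) and rho = 0.682 (permutation p = 0.0247, adjusted p = 0.0430). NR0B1 (r = 0.752) and INHA (r = 0.643) passed with AGTR1 as well, while MRAP did not (r = 0.511, permutation p = 0.109, adjusted p = 0.133), and the pair of NR0B1 and MRAP lost its call (r = 0.547, permutation p = 0.0842, adjusted p = 0.111). Whether a correlation differs between NAMs and group 2 was not tested. In group 1, with 3 of its 7 tumors low in TH or CHGB, 0 of 3 pairs were called by r and 1 by rho, AGTR1 with INHA (r = 0.661, exact permutation p = 0.0990, adjusted p = 0.149; rho = 0.857, exact permutation p = 0.0238, adjusted p = 0.0393; r = 0.481 without 2 tumors).

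For each of the 6 genes, the 3 genes most like it among 12804 named genes were found by Pearson's r of log2 TMM-normalized CPM over all 29 samples. This r is a description, since it is taken over groups that differ in level. NR5A1 was most like ESR1, the estrogen receptor alpha (r = 0.970), APOC1 (0.967) and CYP21A2, the steroid 21-hydroxylase (0.966). MC2R was most like CYP21A2 (r = 0.987), KCNK2, a potassium channel of cortical cells (0.986), and HSD11B2, which inactivates cortisol (0.976), and NR0B1 was most like HSD11B2 (r = 0.974), FAM237B (0.973) and ENPP7 (0.964). MRAP was most like CYP21A2 (r = 0.965), FDX1 (0.961) and CYP11A1 (0.960), of which FDX1 passes electrons to CYP11A1. INHA was most like SLC6A9, a glycine transporter (r = 0.959), LONP1, a protease of mitochondria (0.954), and FDXR, the reductase of ferredoxin (0.948). The closest to AGTR1 was CAVIN3, a protein of caveolae, at r = 0.920 over all samples and 0.872 in NAMs and 0.776 in group 2 alone. RNF128 (r = 0.838) and CCDC189 (0.833) followed, and RNF128 had r = 0.912 in NAMs but 0.222 in group 2.

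Of the genes of steroid enzymes and cholesterol delivery, 11 of 13 were lower in PPGLs and none was higher (15.2% and 22.3% of all genes), with a median log2 FC of -3.12 beside 0.13 for all genes tested, and 10 of 13 were lower in group 1 than in group 2 (2.95% of all genes; median -3.13 beside 0.035). The lower ones in PPGLs against NAMs included CYP11A1 (log2 FC -3.43), CYP21A2 (-3.25) and STAR (-3.19), which brings cholesterol into mitochondria. They also included SCARB1 (-3.15), FDX1 (-3.15), SOAT1 (-3.12), HSD11B2 (-2.98), CYP17A1 (-2.96), FDXR (-2.88) and POR (-2.26). HSD3B2 had a log2 FC of -2.23 and CYB5A of 0.57, neither called (edgeR QL, Benjamini-Hochberg-adjusted p = 0.0889 and 0.0687). HSD3B2 was called without group 2 replicate 10 (-2.94, edgeR QL, adjusted p = 0.0216), and CYB5A, as higher, without group 2 replicate 3 or replicate 8 (0.63 and 0.62, edgeR QL, adjusted p = 0.0294 and 0.0469). Both were also called with 3 groups in the fit, HSD3B2 by the Mann-Whitney U-test and CYB5A with library size only. Leaving out replicate 10 also took the log2 FC of CYP11A1 to -4.16, of CYP21A2 to -3.98, of SCARB1 to -3.82, of CYP17A1 to -3.62 and of HSD11B2 to -3.60. In group 1, CYP11A1 had no count in replicates 3 and 7 and 2 counts in replicate 5. Group 2 replicate 10, with the highest steroid sum of all tumors (36319 CPM), was also the highest tumor for NR5A1, NR0B1, MC2R, MRAP and INHA. What part of the difference in the 6 genes goes with the amount of cortical tissue in a sample was not tested.

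Among other adrenocortical transcription factors, 7 of 13 were lower and 2 higher in PPGLs (15.2% and 22.3% of all genes), with a median log2 FC of -1.10. The lower ones included NR4A3 (-2.24), NR4A1 (-1.87) and NR4A2 (-1.73), nuclear receptors induced early by hormones, and LEF1 (-1.84), a factor of Wnt signaling, and the higher ones were CITED2 (1.36) and CBX2 (1.32). Calls were lost for NR4A3 and NR4A2 without NAM replicate 6 (-1.65 and -1.29, edgeR QL, Benjamini-Hochberg-adjusted p = 0.0853 and 0.1248) or NAM replicate 8 (-1.89 and -1.26, adjusted p = 0.0534 and 0.132). CBX2 lost its call without NAM replicate 3 (1.202, edgeR QL, adjusted p = 0.0514) or PPGL group 1 replicate 7 (0.72, adjusted p = 0.0576). These 3 genes also lost their calls by the Mann-Whitney U-test and with the sample number as a block, and NR4A2 without the 4 tumors low in TH or CHGB. 2 of 13 were lower in group 1 than in group 2 and none was higher (2.95% and 3.97% of all genes), with 6 lower by the DESeq2 Wald test and 8 at an unadjusted p below 0.05 in edgeR QL, and none higher by either. These shares are those of edgeR QL at an adjusted p below 0.1 and not of the alternatives. The Wald test called 1793 of all genes in either direction, against 1015 by edgeR QL.

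In the corticotropin receptor family and the cAMP pathway downstream of it, 5 of 21 genes were lower and 4 higher in PPGLs (15.2% and 22.3% of all genes), and the median log2 FC was -0.091. PRKAR2B (-1.48), a regulatory subunit of protein kinase A, CREM (-1.20), ADCY9 (-0.93) and PRKACB (-0.91) were among the lower. MC4R, another melanocortin receptor, was higher (log2 FC 2.80, edgeR QL, Benjamini-Hochberg-adjusted p = 0.0120) at a low level of 1.40 ± 2.50 CPM in PPGLs (SD, n = 19) and 0.194 ± 0.161 CPM in NAMs (SD, n = 10). The rise lay in group 2 (log2 FC 3.40), and not in group 1 (-0.31, edgeR QL, adjusted p = 0.810), which was lower than group 2 (-3.71). Its call in PPGLs was lost by the Mann-Whitney U-test and with 3 groups in the fit, and it missed the low-count filter when group 1 replicate 6 or any of replicates 3 to 10 or 12 of group 2 was left out. It was joined by ADCY3 (1.80), GNAS (0.59), which encodes the stimulatory G protein, and CRTC2 (0.58). Calls were lost for CREM without NAM replicate 8 (-0.88, edgeR QL, adjusted p = 0.0750) and for GNAS without NAM replicate 1, 6 or 8 (0.55, 0.56 and 0.55, edgeR QL, adjusted p = 0.0546, 0.0541 and 0.0563). CREM was also not called by the Mann-Whitney U-test, and GNAS with no filter or the block. Of these 21, 2 were lower and 1 higher in group 1 than in group 2 (2.95% and 3.97% of all genes). The DESeq2 Wald test had 3 lower and 1 higher, and an unadjusted p below 0.05 in edgeR QL 4 lower and 1 higher.

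Of 15 genes of the angiotensin system, 6 were lower and 3 higher in PPGLs (15.2% and 22.3% of all genes), with a median log2 FC of -0.81. AGTR2, the other angiotensin II receptor, fell from 5.74 ± 3.49 CPM (SD, n = 10) to 0.581 ± 1.32 CPM (SD, n = 19), a log2 FC of -3.29 (edgeR QL, Benjamini-Hochberg-adjusted p = 0.00106) that became -4.30 without group 2 replicate 10. VSNL1 (-2.56) and CALN1 (-2.50), calcium sensors known from the aldosterone-producing zone, and ENPEP (-1.42), an aminopeptidase that cleaves angiotensin II, were lower too, the last not without NAM replicate 1, 2, 6 or 8 (-1.29, -1.33, -1.38 and -1.36, edgeR QL, adjusted p = 0.0682, 0.0590, 0.0541 and 0.0561) or without the 4 tumors low in TH or CHGB. CACNA1D (1.83) and LNPEP (0.80) were among the higher genes, LNPEP not by the Mann-Whitney U-test or with the sample number as a block. Between the groups, 1 of 13 was lower in group 1 and 1 higher (2.95% and 3.97% of all genes). By the DESeq2 Wald test, and also at an unadjusted p below 0.05 in edgeR QL, 4 were lower and 1 higher.

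In the inhibin, activin and anti-Müllerian hormone family, 4 of 16 genes were lower and 3 higher in PPGLs (15.2% and 22.3% of all genes), with a median log2 FC of -0.0027. TGFBR3, betaglycan, the coreceptor through which inhibin binds activin receptors, was at 174 ± 84.7 CPM in the 10 NAMs (SD) and fell to 27.5 ± 19.7 CPM in PPGLs (SD, n = 19), with 17 of 19 tumors below every NAM and a log2 FC of -2.67 (edgeR QL, Benjamini-Hochberg-adjusted p = 2.27e-06). AMHR2 (-1.92), FSTL3 (-1.65) and BAMBI (-1.51) were also lower. INHBB, a beta subunit with which INHA can pair, was higher at a log2 FC of 2.00 (edgeR QL, adjusted p = 0.0185), as were ACVR2B (1.21) and ACVR1 (0.62), receptors of activins. INHBB lost its call by the Mann-Whitney U-test and with the sample number as a block, and ACVR1 with the block. None of the 16 was called between the PPGL groups by edgeR QL or the DESeq2 Wald test (2 lower and 1 higher at an unadjusted p below 0.05 in edgeR QL), where 2.95% of all genes were lower and 3.97% higher.

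Among 17 other hormone receptors, 7 were lower and 2 higher in PPGLs (15.2% and 22.3% of all genes; median log2 FC -0.33). The prolactin receptor PRLR (-3.93), the progesterone receptor PGR (-3.11) and ESR1 (-2.99) were among the lower, and PRLR of 18 of 19 tumors was below every NAM. Higher were the glucagon receptor GCGR (3.19) and the mineralocorticoid receptor NR3C2 (0.90), with GCGR at 2.46 without PPGL group 1 replicate 3 and NR3C2 not called with the sample number as a block. 1 of 16 was lower and 1 higher in group 1 than in group 2 (2.95% and 3.97% of all genes). These counts were 4 and 1 by the DESeq2 Wald test and also at an unadjusted p below 0.05 in edgeR QL. Of 10 genes of the capsule and of cortical zonation, 4 were lower, SHH (-2.47), DAB2 (-1.82), NR2F2 (-1.10) and ZNRF3 (-1.08), and 1 higher, PTCH1 (1.21), the receptor of SHH (15.2% and 22.3% of all genes), with a median log2 FC of -0.85. SHH was at -1.75 without NAM replicate 6 and -3.21 without group 2 replicate 1. 1 of 9 was lower in group 1 than in group 2, as were 2.95% of all genes.

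Markers of further cell types were read beside these lists. In PPGLs against NAMs 15.2% of all genes were lower and 22.3% higher. Fibroblast markers were higher in PPGLs for 6 of 8 (median log2 FC 2.76), with COL3A1 the most abundant, and summed to 266 to 660 CPM in NAMs, 157 to 2429 CPM in group 1 and 410 to 25588 CPM in group 2. Of endothelial markers 3 of 8 were lower, of chromaffin markers 1 of 15 was lower and 5 higher (median log2 FC 0.57), and of leukocyte markers 1 of 6 was lower and 2 higher. None of 6 Schwann and sustentacular cell markers was called by edgeR QL, although 2 were lower by the DESeq2 Wald test and 2 at an unadjusted p below 0.05 in edgeR QL, while 2 of 5 adipocyte markers were lower and 2 of 4 liver and kidney markers were lower and 2 higher. UMOD, a marker of kidney tubules, had no count in any sample. Whether these cell types bear on the level of any of the 6 genes was not tested.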

How the data were processed

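The authors sequenced mRNA of 29 samples, used STAR with the CanFam3.1 genome and deposited 1 table with a raw read count for each Ensembl gene (over its exons) and sample. Their notes also name HTSeq, Picard and FastQC, while the table is named for featureCounts, so which of the 2 tools made the counts is not certain; the strand setting and the handling of reads that map to several places are not given in the sources used here. All 30951 genes were read, 24051 of which had a count, and libraries of a group differed from each other by more than sampling noise.

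Counts were filtered with filterByExpr of edgeR 4.0.16 (minimum count 10, minimum total 15), normalized by TMM and fitted with glmQLFit and glmQLFTest (prior count 0.125) in R 4.3.3. The 19 PPGLs were set against 10 NAMs in a fit of 2 groups, the PPGL groups in a fit of the tumors alone, and each group against NAMs in a fit of 3 groups. Correlations used log2 CPM after TMM, with 2 as the prior count. Permutation tests used Python 3.11.15 and scipy 1.17.1, with 100000 resamples or all orders for 7 tumors. The fitting steps were tested on simulated data.

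Alternatives were DESeq2 size factors or its Wald test (DESeq2 1.42.0), library size in place of TMM, no filter or at least 1 CPM, the Mann-Whitney U-test, a prior count of 2, 3 groups or only 2 groups in the fit, the sample number as a block, other added counts in ratios and correlations, and, for log2 FCs and ratios, each sample left out. Leaving out the tumors low in TH or CHGB was added after the data were seen, and of these the correlations were run without PPGL group 2 replicate 7 alone. Counts of list genes by the DESeq2 Wald test and at an unadjusted p below 0.05 were also added after the data were seen. Shares of all genes beside list counts are those of edgeR QL at the adjusted p thresholds, not of these alternatives. The 6 genes and all gene lists were chosen with earlier results of these data known, and 203 of 216 list genes were found by name. Genes named from the lists were those called in PPGLs against NAMs, up to 4 per direction by log2 FC, and all of the steroid list. Correlations were planned over 45 pairs and adjusted over the 33 that could be computed. Promoter sequences were not used here.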

Additional observations from a re-analysis of the deposited data

Results flagged for a closer look

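In 6 of 19 groups of values tested, the highest sample lay farther from the next than its group's range allows by a gap test. Chance meets that test in about 1 of 20 groups if values are normally distributed. CPM need not be, and MC2R and MRAP were at 0 in 4 tumors of group 1, so the rate here is not known. In NAMs, INHA of replicate 8 was 271.6 CPM and the next sample 139 CPM. The log2 ratio of INHA to NR5A1 in the same NAM was -0.93, and the next was -1.74. For PPGL group 1, NR5A1 of replicate 3 was 5.28 CPM, with the next tumor at 2.08 CPM. Replicate 6 of that group was far above the other tumors for MC2R (0.525 CPM, next 0.0876 CPM) and for MRAP (1.63 CPM, next 0.235 CPM), values that rest on 9 and 28 counts. It also met the rule for NR0B1, the last of the 6, but with 2 counts (0.117 CPM, under the 3 that can be read) and all others at 0 the rule could not fail, so nothing is read from it. That tumor also had the highest CYP11A1 of group 1, 34.4 CPM from 590 counts.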

How the results depend on the processing

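No called log2 FC, ratio or correlation of the 6 genes changed direction; the uncalled ratios of MC2R and INHA crossed 0 with 1 sample left out (-0.048 to 0.12 and -0.33 to 0.029), and so did 2 uncalled correlations of MRAP with library size only. Of the alternative fits of the 6 genes, 229 of 234 kept the call in PPGLs against NAMs, 152 of 173 between the PPGL groups, 234 of 234 for group 1 and 231 of 234 for group 2 against NAMs. All 115 for ratios and 76 of 81 for correlations did so. The causes of the changes below were not tested.

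AGTR1 in PPGLs against NAMs passed its threshold with the DESeq2 Wald test (-1.14), 3 groups in the fit (-1.60, the mean of both groups), the Mann-Whitney U-test (-1.11) and 15 PPGLs, leaving out the 4 low in TH or CHGB (-1.17), and ranged from -1.28 to -0.99 with 1 sample left out. Between the groups it passed with the Wald test (-1.86) and 3 groups (-1.87), and ranged from -2.38 to -1.63. INHA between the groups lost its call with library size only (-1.91), no filter (-2.01), the Mann-Whitney U-test (-1.99) and the 4 tumors left out (-2.51), and ranged from -2.27 to -1.33. NR0B1 in group 2 against NAMs ranged from -2.02 to -1.45, and 3 NAMs decided the call.

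Genes called between the groups numbered 1015, and 1793 with the Wald test, 2567 with 3 groups, 386 with the Mann-Whitney U-test, 303 without the 4 tumors and 525 to 1218 with 1 tumor left out, the fewest without group 1 replicate 7 and 674 without group 2 replicate 4. Without group 2 replicate 7, the correlations of AGTR1 with NR5A1 (0.646), NR0B1 (0.752), MC2R (0.730) and INHA (0.643) passed and that of NR0B1 with MRAP (0.547) failed.

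Sample numbers count different dogs in each group. Samples of the same number deviated together (r over 0.1) in 0 of 7 pairs of NAM and group 1, 2 of 10 of NAM and group 2 and 0 of 7 of the 2 PPGL groups. With the number as a block, 47 genes and 3 of the 6 were called between the groups, and NR5A1 (-4.75) and INHA (-0.95) were not.

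Few counts limit NR0B1, MC2R and MRAP in group 1. NR0B1 between the groups was not tested under the filter of at least 1 CPM. Prior count 2 moved it most, and promoter motifs were not run for want of sequences. Of the other genes named, MC4R, CBX2, CREM, INHBB, LNPEP, NR4A2 and NR4A3 lost their calls in PPGLs against NAMs by the Mann-Whitney U-test, and ACVR1, CBX2, GNAS, INHBB, LNPEP, NR3C2, NR4A2 and NR4A3 with the block.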
